A study of Mus musculus with 2 samples.

Results

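The actin cytoskeleton and podosome genes of RANKL-treated RAW264.7 cells were examined in a Cpeb4 knockdown library and its control. The set was a list of 54 gene symbols for actin, its nucleators, filament-binding proteins, adhesion plaque proteins, and the kinases and GTPases that act on them. All 54 symbols were found among the 18987 genes of the deposited count table, and 53 of them passed a filter at a mean of 1 CPM (counts scaled to a common library size) over both libraries. The remaining member was Cttn, the gene of cortactin, with 7 counts with Cpeb4 shRNA and 4 with control shRNA.

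RAW264.7 is a mouse macrophage-like cell line that differentiates towards osteoclasts under RANKL, the cytokine that drives osteoclast formation. One group carried an shRNA against Cpeb4, which encodes an RNA-binding protein of the cytoplasmic polyadenylation element-binding family, and the other carried a control shRNA. Cells of both groups were the same line and had received 100 ng/ml RANKL, given 24 h after seeding at 7500 cells per cm2, and the series title dates the collection to day 3. Each group had 1 library. The labels do not state the shRNA sequences, the vector, or whether the cells were a pool or a clone. Every difference reported is between 2 libraries, with no replicate check and no test, and a limit of 2-fold is used to describe it.

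Podosomes are small adhesions with a core of branched actin filaments, which the Arp2/3 complex nucleates, and a ring of plaque proteins such as talin, vinculin and paxillin that join the filaments to integrins. In osteoclasts they gather into a belt that becomes the sealing zone around the site of bone resorption. The kinases Src and Pyk2 (gene Ptk2b), the CBL ubiquitin ligases and small GTPases of the RAC and CDC42 kind are known to control their assembly and turnover.

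The library with Cpeb4 shRNA had 119350322 counts in total and the one with control shRNA had 79399680. Cpeb4 had 13491 counts with Cpeb4 shRNA and 25270 with control shRNA, which is 104 CPM and 345 CPM after TMM scaling. The log2 ratio (Cpeb4 shRNA over control shRNA) of Cpeb4 was -1.73 (95% counting interval -1.76 to -1.70). Intervals are exact Clopper-Pearson intervals and cover counting error only, not differences between cultures. The macrophage label was checked against 8 markers, of which 7 were listed and 5 passed the filter. Of the 5, 4 were below 0, among them the receptor gene Csf1r, with 1790 CPM with Cpeb4 shRNA and 2736 CPM with control shRNA (-0.61), and Cd68, with 570 CPM and 1174 CPM (-1.04). The remaining marker past the filter, Lyz2, was higher, with 11.4 CPM with Cpeb4 shRNA and 5.71 CPM with control shRNA (0.998). Adgre1, which encodes the macrophage antigen F4/80, did not pass the filter, with 0.781 CPM with Cpeb4 shRNA and 0.164 CPM with control shRNA. Fcgr1 did not pass it either, with 19 counts with Cpeb4 shRNA and 88 with control shRNA (-3.03). Osteoclast markers, all 10 of which passed the filter, summed to 11299 CPM with Cpeb4 shRNA and 49814 CPM with control shRNA. Most of these sums came from Ctsk (4175 CPM with Cpeb4 shRNA and 24234 CPM with control shRNA) and Acp5 (3304 CPM and 15715 CPM). Of the 10 markers 9 were 2-fold or more lower, beside 11.8% of all genes. The remaining marker, Nfatc1, had 1578 CPM with Cpeb4 shRNA and 1637 CPM with control shRNA (-0.05). The 4 cycling markers summed to 1158 CPM with Cpeb4 shRNA and 60.1 CPM with control shRNA. Of 12 smooth muscle and fibroblast markers 6 were listed and 0 passed the filter, with sums of 2.30 CPM with Cpeb4 shRNA and 1.24 CPM with control shRNA. The part of these marker differences in the results on the actin genes was not tested, and in bulk RNA a smaller number of osteoclasts and less RNA per osteoclast cannot be told apart.

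Under TMM scaling most of the podosome and actin genes lay a little below the control, and a small number stood far from it. Of the 53 genes past the filter, 11 were 2-fold or more lower with Cpeb4 shRNA (20.8%), 4 were 2-fold or more higher (7.55%) and 38 were within 2-fold. The same shares over all 12086 genes were 11.8% lower, 14.6% higher and 73.6% within 2-fold. The median log2 ratio of the set was -0.37, and that of all genes was 0.05. A total of 41 of the 53 genes (77.4%) were below 0, as were 47.5% of all genes. The middle 50% of the set lay between -0.79 and -0.08, and the middle 50% of all genes between -0.51 and 0.62. At a limit of 1.5-fold 18 genes of the set were lower and 7 higher, beside 22.1% and 26.4% of all genes. At 4-fold 3 were lower and 2 higher, beside 3.52% and 4.82% of all genes.

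The level of the whole set depended on how the libraries were scaled. Scaling by total count moved each log2 ratio by 0.23, which gave a median of -0.14 with 6 genes higher and 7 lower. With 20 reference genes as the scale each ratio moved by 0.40, which gave a median of 0.028 with 7 higher and 6 lower. Under TMM the 20 reference genes themselves had a median of -0.40, and 13 of them were below 0. Genes of the set below 0 were 41 of 53 with TMM, 36 with total count and 26 with reference genes. Among all genes, total-count scaling gave 2487 higher and 1039 lower, and reference genes gave 3118 higher and 831 lower, beside 1765 and 1421 with TMM. The genes lower by 2-fold or more under TMM and under each of the 5 other scalings and corrections were 6, namely Tns1, Rhou, Cblb, Ptk2b, Sh3pxd2a and Zyx. Those higher by 2-fold or more under all of them were 3, namely Scin, Fscn1 and Coro1a. Nearest to the 2-fold limit on the lower side were Actn1 at -1.08, counted as 2-fold lower, and Rac2 at -0.95, within 2-fold. On the higher side they were Tpm3 at 1.002, counted as 2-fold higher, and Ptk2 at 0.87, within 2-fold.

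**Figure D1:**
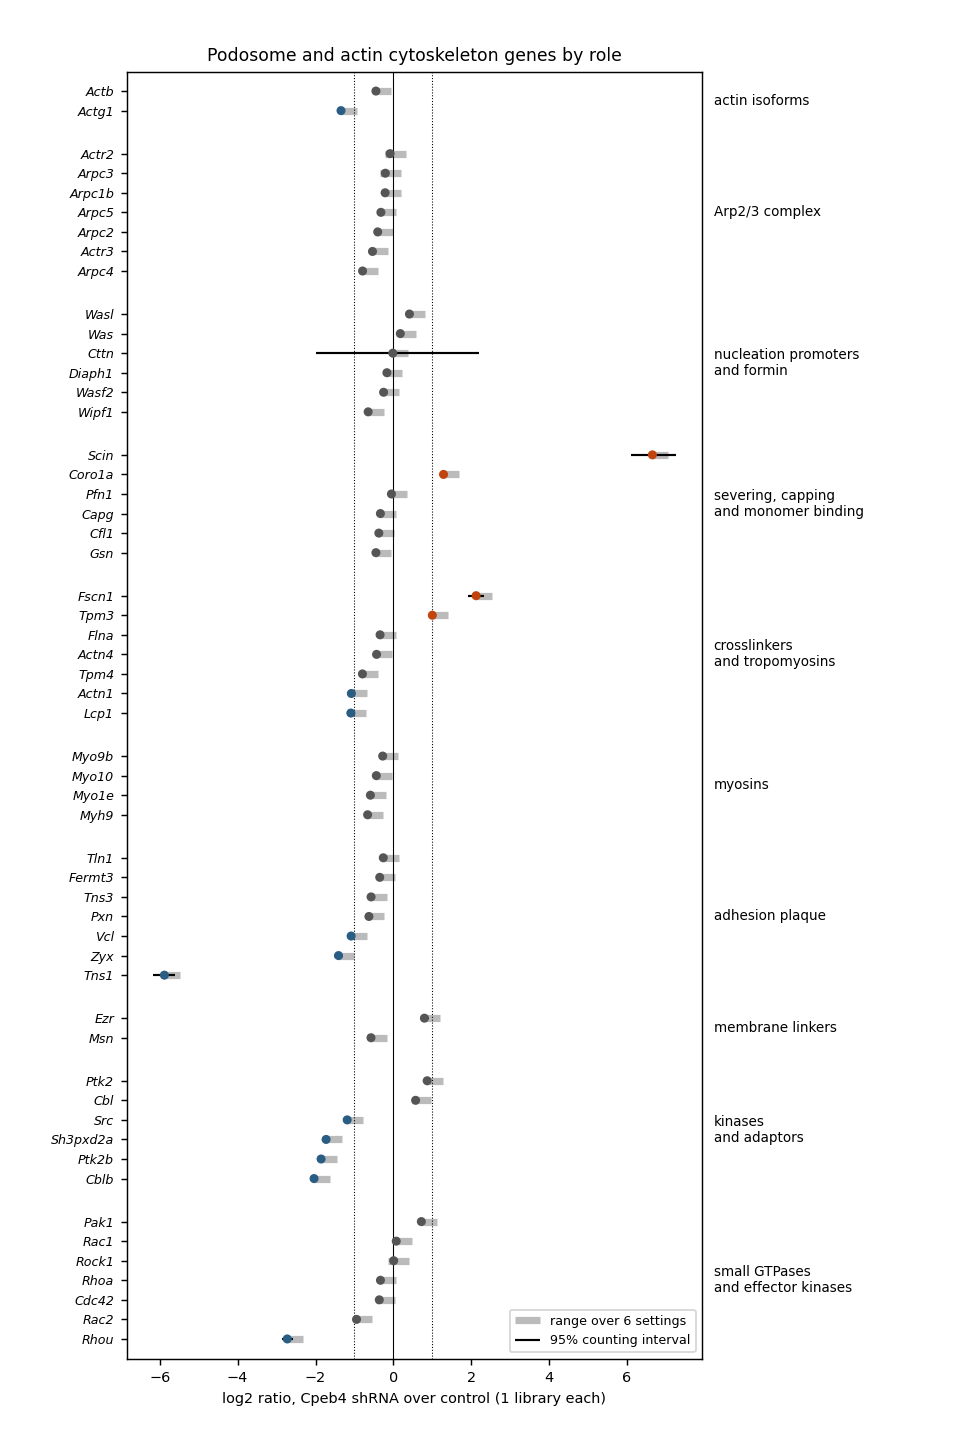
Log2 ratio of Cpeb4 shRNA over control (x axis) for each of the 54 genes, grouped by role. Points are TMM-scaled ratios (blue, 2-fold or more lower; orange, 2-fold or more higher; grey, within 2-fold), black lines are 95% counting intervals and grey bars span the 6 settings tried (TMM, total count, DESeq2 size factors, reference genes, thinning and, except for Cttn, trend removal). Tns1 at -5.88 and Scin at 6.66 stand apart, and Cttn has the widest interval because it had 7 and 4 counts.

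**Figure D2:**
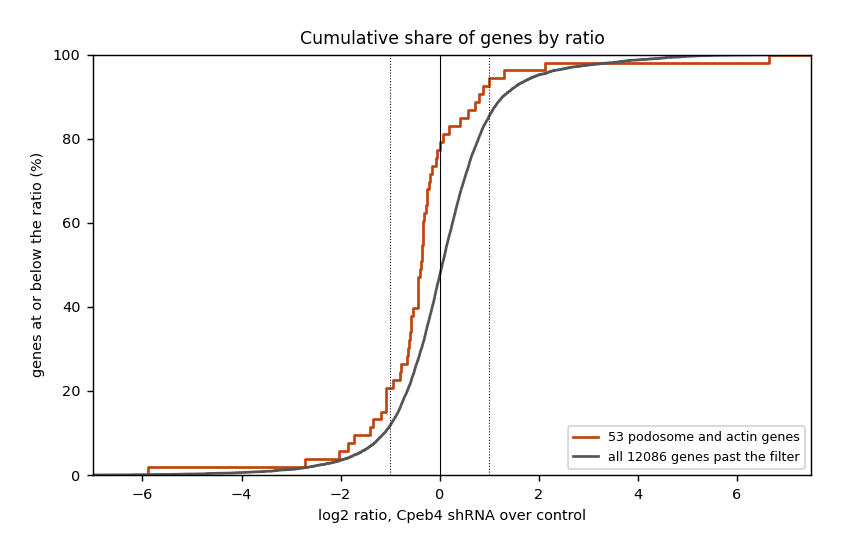
Cumulative share of genes (y axis, percent) at or below each log2 ratio (x axis) for the 53 podosome and actin genes past the filter and for all 12086 genes. The curve of the set lies to the left of the curve of all genes between the dotted 2-fold lines. Under TMM scaling 77.4% of the set is below 0.

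Under TMM scaling the cytoplasmic actins were both lower with Cpeb4 shRNA, and by different amounts. Actg1, which encodes gamma-actin, had 135693 counts with Cpeb4 shRNA and 195012 with control shRNA, which is 1049 CPM and 2663 CPM. Its log2 ratio was -1.34 (-1.35 to -1.33), and -0.94 under reference-gene scaling. Actb, which encodes beta-actin, had 1614 CPM with Cpeb4 shRNA and 2201 CPM with control shRNA. Its log2 ratio was -0.45 (-0.46 to -0.44), and -0.05 under reference-gene scaling. The ratio of the isoforms within a library does not depend on scaling. Per transcript length, in TPM (transcripts scaled to a common total), Actb was at 1.57 times the level of Actg1 with Cpeb4 shRNA and at 0.840 times with control shRNA. The more abundant actin mRNA per length was thus Actb with Cpeb4 shRNA and Actg1 with control shRNA. Of the 50-base windows of the Actg1 transcript 56.7% also occur in transcripts of other genes, so reads may be split among them. The copy Gm12715 had 16281 counts with Cpeb4 shRNA and 23399 with control shRNA, and adding the counts of 4 such copies left the Actg1 ratio at -1.34 (-1.35 to -1.33).

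Serum response factor is a transcription factor whose coactivators are bound by monomeric actin, and through the CArG box it is known to drive many actin genes. RefSeq windows of 250 bases before to 50 after the start site on GRCm38.p6 were matched by symbol for 44 of the 54 genes. A CArG box (the motif reads the same on both strands) was present in the windows of 4 of these genes, or 9.09%, and in 1.39% of the 8791 genes past the filter that had a window. These were Actg1, Vcl, Arpc4 and Myo1e, with log2 ratios of -1.34, -1.09, -0.79 and -0.59. The median of the 4 was -0.94, against -0.35 for the 40 genes of the set without the box and -0.04 for 118 other genes past the filter with it. The boxes of Actg1, Vcl and Myo1e are shown in capitals with their flanks, in the direction of the gene, to let their spacing and letters be compared, while that of Arpc4 lies at the edge of its window and is not shown. They start 90, 227 and 32 bases before the start site, in the windows chr11:120348446-120348745 on the minus strand, chr14:20929148-20929447 on the plus strand and chr9:70207100-70207399 on the plus strand.
Actg1: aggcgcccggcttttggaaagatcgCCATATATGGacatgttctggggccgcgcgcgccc
Vcl: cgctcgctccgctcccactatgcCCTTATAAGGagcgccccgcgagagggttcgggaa
Myo1e: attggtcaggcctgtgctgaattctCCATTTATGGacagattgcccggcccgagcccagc
A match of letters is a description and does not show binding. Any part of serum response factor in these ratios was not tested.

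The Arp2/3 complex starts branches on existing filaments. All 7 of its subunit genes were within 2-fold, beside 73.6% of all genes. Their log2 ratios ran from -0.79 for Arpc4 to -0.08 for Actr2, with a median of -0.32. Under reference-gene scaling 4 of them (Actr2, Arpc1b, Arpc3, Arpc5) were above 0. Actr2, which encodes the ARP2 subunit, had 538 CPM with Cpeb4 shRNA and 570 CPM with control shRNA. Arpc4 had 257 CPM with Cpeb4 shRNA and 444 CPM with control shRNA, the largest difference among the 7. Per length the subunits spanned a 2.97-fold range with Cpeb4 shRNA and a 2.83-fold range with control shRNA, with Arpc2 the highest in both at 723 TPM and 838 TPM. Some complexes use alternative subunits, whose genes were outside the list. Arpc1b was at 7.02 times the level of Arpc1a per length with Cpeb4 shRNA and 7.76 times with control shRNA. Arpc5 was at 6.79 times Arpc5l with Cpeb4 shRNA and 8.23 times with control shRNA. The balance of Actr3 over its scarce paralog Actr3b changed more, being 62.4-fold with Cpeb4 shRNA and 34.2-fold with control shRNA. Of the 50-base windows of Arpc1b 42.2%, and of Actr3 49.8%, also occur in transcripts of other genes, so these levels are less certain. Exons of the opposite-strand gene Pdap1 cover 18.2% of the annotated exon bases of Arpc1b. Adding the counts of the copy Gm15899 left the Actr3 log2 ratio at -0.54.

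Activators of nucleation also lay within 2-fold, all 5 past the filter, beside 73.6% of all genes. Wasl, which encodes N-WASP, had 22.0 CPM with Cpeb4 shRNA and 16.5 CPM with control shRNA (log2 ratio 0.41, 0.32 to 0.51). Was, its haematopoietic relative, had 72.7 CPM with Cpeb4 shRNA and 64.2 CPM with control shRNA (0.18). Wipf1, which encodes the WASP-interacting protein WIP, had 205 CPM with Cpeb4 shRNA and 321 CPM with control shRNA (-0.65). Wasf2, a WAVE family gene, and the formin gene Diaph1 were at -0.25 and -0.16. Cttn was close to undetected in both libraries, and its interval of -1.99 to 2.21 shows no direction. Its haematopoietic relative Hcls1 was present at 136 TPM with Cpeb4 shRNA and 94.0 TPM with control shRNA.

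**Figure D3:**
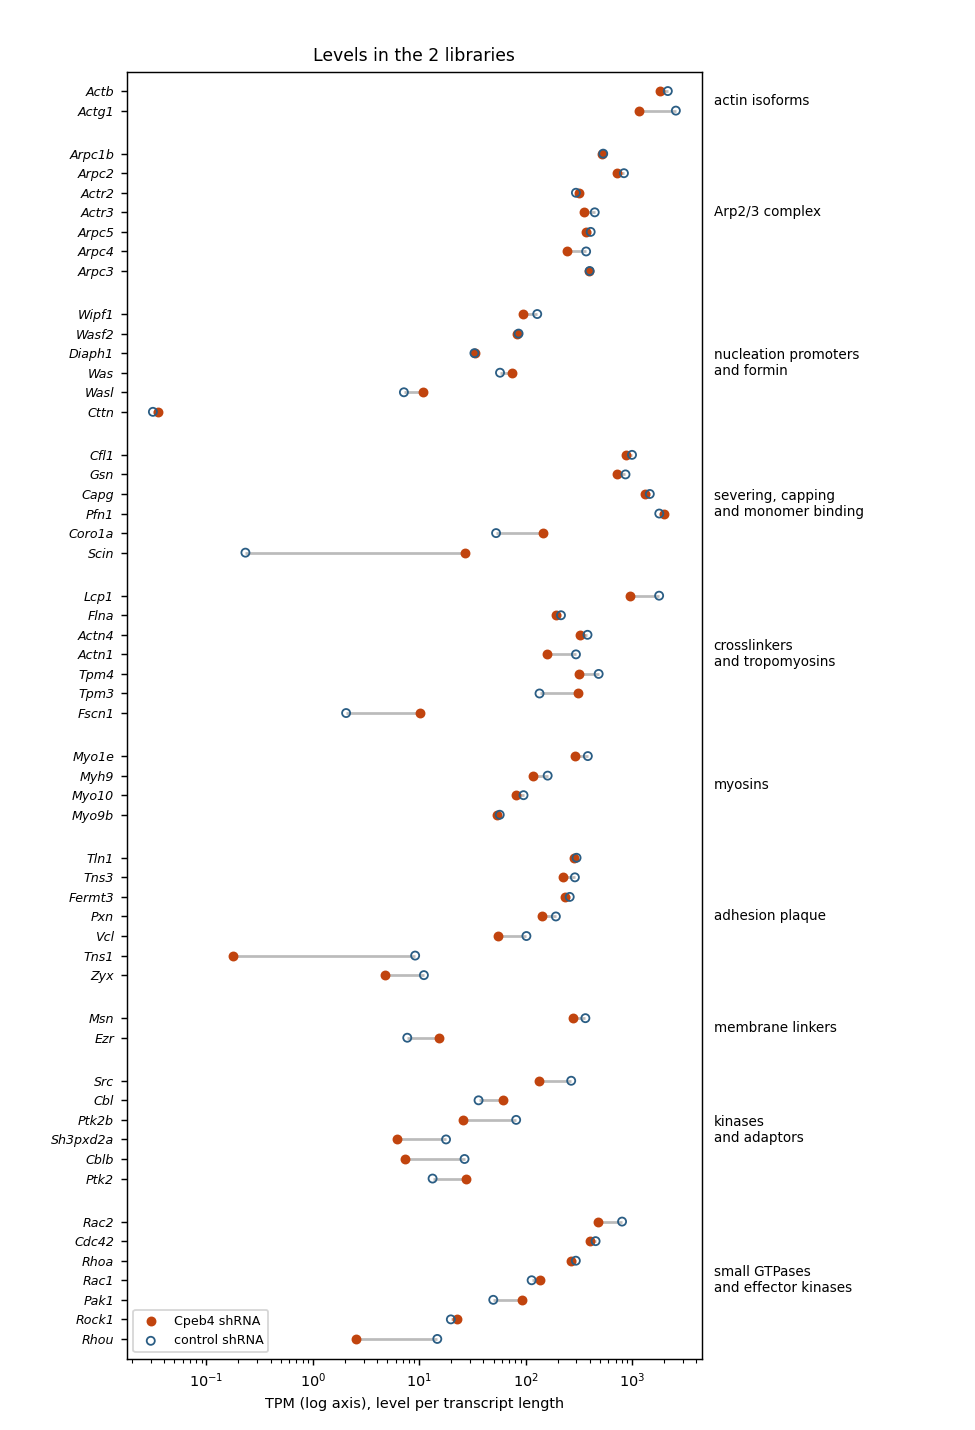
Level per transcript length in TPM (log x axis) of the 54 genes with Cpeb4 shRNA (filled) and control shRNA (open), grouped by role. Many pairs of points lie close together, while Scin, Fscn1 and Coro1a lie to the right with Cpeb4 shRNA and Tns1, Rhou and Cblb to the left.

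Among severing, capping and monomer-binding genes the highest ratio of the set was found. Scin encodes scinderin (adseverin), a calcium-dependent severing and capping protein of the gelsolin family. It had 4816 counts with Cpeb4 shRNA and 27 with control shRNA, which is 37.2 CPM and 0.369 CPM. The log2 ratio was 6.66 (6.11 to 7.26), and it ranked 7 from the top of 12086 genes. With a pseudocount of 1 CPM it was 4.80. Coro1a, which encodes the haematopoietic coronin that binds actin and Arp2/3, had 15415 counts with Cpeb4 shRNA and 3569 with control shRNA, which is 119 CPM and 48.7 CPM (1.29, 1.24 to 1.34). The remaining 4 genes, for gelsolin (Gsn, -0.45), the capping protein CapG (Capg, -0.33), cofilin (Cfl1, -0.37) and profilin (Pfn1, -0.05), were within 2-fold. Gsn stayed far more abundant than Scin, with 724 TPM against 26.7 TPM with Cpeb4 shRNA and 867 TPM against 0.233 TPM with control shRNA.

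The crosslinkers lay on both sides of the control. Fscn1, which encodes the bundling protein fascin, had 1644 counts with Cpeb4 shRNA and 213 with control shRNA, which is 12.7 CPM and 2.91 CPM (log2 ratio 2.13, 1.92 to 2.34). Lcp1, the gene of the leukocyte bundling protein L-plastin, had 221517 counts with Cpeb4 shRNA and 267237 with control shRNA, which is 1712 CPM and 3649 CPM (-1.09, -1.10 to -1.08). It had the most counts of the set in both libraries. Actn1, a non-muscle alpha-actinin gene, had 35915 counts with Cpeb4 shRNA and 42946 with control shRNA, which is 278 CPM and 586 CPM (-1.08, -1.10 to -1.06). The other alpha-actinin gene, Actn4, was at -0.43 and the filamin gene Flna at -0.34, or 0.06 for Flna under reference-gene scaling. Lcp1 and Actn1 were within 2-fold under total-count scaling (-0.86 and -0.85) and reference-gene scaling (-0.69 and -0.68), and Actn1 also after trend removal (-0.97).

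The tropomyosins, which coat filaments, lay in opposite directions. Tpm3 had 41334 counts with Cpeb4 shRNA and 11678 with control shRNA, which is 319 CPM and 159 CPM (log2 ratio 1.002, 0.97 to 1.03). Tpm4 had 315 CPM with Cpeb4 shRNA and 546 CPM with control shRNA (-0.79). The copy Tpm3-rs7 shares sequence with Tpm3, whose transcript has 62.4% of its 50-base windows in other genes, and it had 69417 counts with Cpeb4 shRNA and 20885 with control shRNA. With both summed, Tpm3 had 856 CPM with Cpeb4 shRNA and 445 CPM with control shRNA and a log2 ratio of 0.94 (0.93 to 0.96), just within 2-fold. It was also just within 2-fold with DESeq2 size factors (0.99) and after thinning (0.97).

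All 4 myosin genes of the set had TMM-scaled ratios below 0 that were smaller than 2-fold. Of the whole set 77.4% were below 0, and of all genes 47.5% were below 0 and 73.6% within 2-fold. Myh9, the heavy chain of non-muscle myosin IIA that contracts the actin around podosome cores, had 401 CPM with Cpeb4 shRNA and 633 CPM with control shRNA (-0.66). Myo1e, a membrane-binding class I myosin, had 624 CPM with Cpeb4 shRNA and 939 CPM with control shRNA (-0.59). Myo10, the filopodial motor, was at -0.44. Myo9b, whose tail inactivates small GTPases, was at -0.27, and at 0.13 under reference-gene scaling.

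The adhesion plaque held the lowest gene of the set. All 7 of its genes were below 0 under TMM scaling, beside 77.4% of the set and 47.5% of all genes. Their median was -0.63. Tns1 encodes tensin 1, a protein that links actin to integrin tails. It had 105 counts with Cpeb4 shRNA and 3512 with control shRNA, which is 0.811 CPM and 48.0 CPM. The log2 ratio was -5.88 (-6.18 to -5.60), rank 14 from the bottom of all genes past the filter, and -4.76 with a pseudocount of 1 CPM. Tns3, the tensin gene with the higher level in both libraries, had 772 CPM with Cpeb4 shRNA and 1148 CPM with control shRNA (-0.57). Zyx, the gene of zyxin, which is recruited to strained actin, had 909 counts with Cpeb4 shRNA and 1366 with control shRNA, which is 7.03 CPM and 18.7 CPM (-1.41, -1.53 to -1.29). Vcl, which encodes vinculin, had 17272 counts with Cpeb4 shRNA and 20741 with control shRNA, which is 133 CPM and 283 CPM (-1.09, -1.11 to -1.06), and was within 2-fold under total-count (-0.85) and reference-gene (-0.69) scaling. Exons of the opposite-strand gene Ap3m1 (-0.64) cover 25.5% of the annotated exon bases of Vcl, so without a stated strand setting their reads cannot be told apart there. Paxillin (Pxn, -0.63), kindlin-3 (Fermt3, -0.35) and talin 1 (Tln1, -0.26) were within 2-fold. Tln1 was at 0.14 and Fermt3 at 0.05 under reference-gene scaling.

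Kinases and adaptors had the lowest median of the 10 roles, -1.46, with 4 of 6 genes 2-fold or more lower, beside 11.8% of all genes. Of 31 other kinase and adaptor genes past the filter 3 were lower and 3 higher, with a median of -0.13. Src, the kinase required for the osteoclast sealing zone, had 31479 counts with Cpeb4 shRNA and 40539 with control shRNA, which is 243 CPM and 554 CPM (log2 ratio -1.19, -1.21 to -1.16). It was within 2-fold under total-count scaling (-0.95), reference-gene scaling (-0.79) and just so after trend removal (-0.99). Ptk2b, the gene of the podosome kinase Pyk2, had 6007 counts with Cpeb4 shRNA and 12314 with control shRNA, which is 46.4 CPM and 168 CPM (-1.86, -1.90 to -1.81). Its paralog Ptk2, which encodes focal adhesion kinase, lay on the other side, with 57.0 CPM with Cpeb4 shRNA and 31.2 CPM with control shRNA (0.87, 0.80 to 0.94). Cblb, a ubiquitin ligase gene, had 2954 counts with Cpeb4 shRNA and 6863 with control shRNA, which is 22.8 CPM and 93.7 CPM (-2.04, -2.10 to -1.97). Its paralog Cbl had 323 CPM with Cpeb4 shRNA and 217 CPM with control shRNA (0.57). Sh3pxd2a encodes TKS5, a scaffold of podosomes and a SRC substrate. It had 3858 counts with Cpeb4 shRNA and 7233 with control shRNA, which is 29.8 CPM and 98.8 CPM (-1.73, -1.78 to -1.67).

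Among small GTPases and their kinases Rhou alone passed 2-fold under TMM scaling. Rhou, an atypical CDC42-related GTPase, had 515 counts with Cpeb4 shRNA and 1930 with control shRNA, which is 3.98 CPM and 26.4 CPM (log2 ratio -2.73, -2.87 to -2.59). Rac2, the haematopoietic RAC, had 672 CPM with Cpeb4 shRNA and 1294 CPM with control shRNA (-0.95). Rac1 had 264 CPM with Cpeb4 shRNA and 250 CPM with control shRNA (0.07). Exons of the opposite-strand gene Daglb cover 51.4% of those annotated for Rac1, and Daglb was at -0.25 with 2197 counts with Cpeb4 shRNA and 1476 with control shRNA. Rhoa and Cdc42 were at -0.33 and -0.36 (0.07 and 0.04 under reference-gene scaling), the kinase gene Rock1 at 0.01, and Pak1, which encodes an effector kinase of RAC and CDC42, at 0.72. The membrane linker gene Ezr (ezrin) had 22.5 CPM with Cpeb4 shRNA and 12.9 CPM with control shRNA (0.80). Its relative Msn (moesin) had 497 CPM with Cpeb4 shRNA and 740 CPM with control shRNA (-0.57). Under reference-gene scaling Pak1 (1.12), Ezr (1.199) and Ptk2 (1.27) passed 2-fold.

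Paralogs of the set differed in their balance between the libraries, a measure that no scaling of whole libraries changes. The 12 pairs were drawn up after the values had been seen and cover families with more than 1 member in the set. In 7 pairs the ratio of the paralogs changed 2-fold or more, and in 6 pairs the TMM-scaled ratios lay on opposite sides of 0. Over all pairs of genes past the filter these shares were 45.5% and 49.9%, so the counts are near the background and nothing particular to paralogs is read from them. Ptk2 was at 1.08 times the level of Ptk2b per length with Cpeb4 shRNA and at 0.164 times with control shRNA, a 6.62-fold difference (2.73 on the log2 scale, 2.65 to 2.81, intervals of such differences being normal approximations for counting error). Cbl was at 8.27 times Cblb with Cpeb4 shRNA and 1.35 times with control shRNA. Tpm3 was at 0.966 times Tpm4 with Cpeb4 shRNA and at 0.278 times with control shRNA. With the counts of Tpm3-rs7 added to Tpm3 these were 2.59 times with Cpeb4 shRNA and 0.776 times with control shRNA. Rac1 was at 0.287 times Rac2 with Cpeb4 shRNA and 0.141 times with control shRNA. The order per length turned in 2 pairs, Actb with Actg1 and Ptk2 with Ptk2b, and also in Tpm3 with Tpm4 once the copy was added. The smallest change was that of Capg and Gsn, whose log2 ratios differed by 0.12 (0.10 to 0.13).

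**Figure D4:**
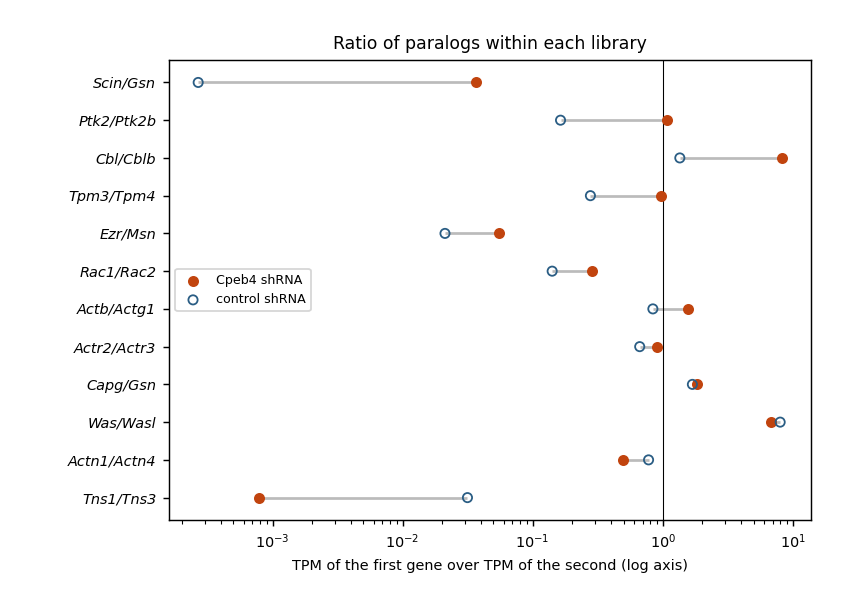
Level of the first paralog over the second within a library, per transcript length (log x axis), for 12 pairs with Cpeb4 shRNA (filled) and control shRNA (open). The pairs Actb/Actg1 (1.57 with Cpeb4 shRNA, 0.840 with control shRNA) and Ptk2/Ptk2b (1.08 and 0.164) lie on opposite sides of 1 in the libraries.

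The paralogs outside the set named here had log2 ratios beyond 2-fold and do not stand for all such paralogs. Pairs whose ratio changed by less than 2-fold included Lcp1/Pls3 (-0.23 on the log2 scale), Rock1/Rock2 (-0.40) and Tpm4/Tpm1 (-0.40). Lpxn, which encodes leupaxin, a paxillin relative of osteoclasts and leukocytes, had 7213 counts with Cpeb4 shRNA and 335 with control shRNA (log2 ratio 3.61). Pxn was at 1.99 times its level per length with Cpeb4 shRNA and 37.4 times with control shRNA. Myo1f, the haematopoietic relative of Myo1e, had 4034 counts with Cpeb4 shRNA and 185 with control shRNA (3.63). Tns2 was low, as Tns1 was, with 72 counts with Cpeb4 shRNA and 641 with control shRNA (-3.98). Rhov, the nearest relative of Rhou, had 104 counts with Cpeb4 shRNA and 389 with control shRNA (-2.72). The ratio of Rhou to Rhov per length was thus 2.50 with Cpeb4 shRNA and 2.51 with control shRNA. Rhoc, a close relative of Rhoa, had 1732 counts with Cpeb4 shRNA and 10839 with control shRNA (-3.47). Dstn, the gene of the cofilin relative destrin, had 18490 counts with Cpeb4 shRNA and 42581 with control shRNA (-2.02). Cfl1 was at 5.46 times Dstn per length with Cpeb4 shRNA and 1.74 times with control shRNA.

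A wider list of 273 other actin and podosome genes was sorted by the same roles. Of these, 232 were listed and 211 had a mean above the filter. A total of 41 (19.4%) were 2-fold or more lower and 26 (12.3%) 2-fold or more higher, beside 11.8% and 14.6% of all genes, and the median was -0.16. With reference genes as the scale the split turned to 25 lower and 40 higher. In the small GTPase role 11 of 60 were lower and 12 higher, and the highest were genes of cytokinesis, in which RHOA contracts the cleavage furrow. Iqgap3 had 13266 counts with Cpeb4 shRNA and 279 with control shRNA (log2 ratio 4.75). The citron kinase gene Cit had 3223 counts with Cpeb4 shRNA and 115 with control shRNA (3.99). Ect2, a GTPase exchange factor gene, and Racgap1, whose protein partners ECT2 in the furrow, were at 3.84 and 3.70. The formin gene Diaph3, of the nucleation role, was at 3.82. The cycling markers were higher in the same library, and their part in these values was not tested. The lowest of that role were the genes Rhod (9 counts with Cpeb4 shRNA and 149 with control shRNA, -4.87), Rnd1 (-3.66) and Rhoc.

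In the other roles most genes of the wider list were within 2-fold. The SH2-SH3 adaptor gene Nck2 had 18 counts with Cpeb4 shRNA and 338 with control shRNA (-5.05). Eps8, which encodes a capping and bundling protein, had 808 counts with Cpeb4 shRNA and 32 with control shRNA (3.84). The tropomyosin gene Tpm2 (-3.55), the filamin gene Flnc (-2.51) and the calponin gene Cnn2 (-2.51) were more than 4-fold lower. So were the myosin genes Myh14 (-2.84) and Myo1d (-2.78), as well as Fblim1 (-2.18), Arhgap31 (-2.06), Pdlim7 (-2.02) and Marcksl1 (-2.01). More than 4-fold higher were Lsp1 (2.39), which encodes a leukocyte F-actin-binding protein, the thymosin gene Tmsb10 (2.37), the CDC42 exchange factor gene Fgd2 (2.57) and the GTPase inhibitor gene Arhgdib (2.10). Among kinases and adaptors Dok2 (1.57) was highest and Gab2 (-1.36) lowest. In the Arp2/3 role Actr3b was lowest (-1.40) and Arpc5l highest (-0.04). Among crosslinkers the plastin gene Pls1 was highest (1.499), and among membrane linkers Slc9a3r1 (1.53).

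**Figure D5:**
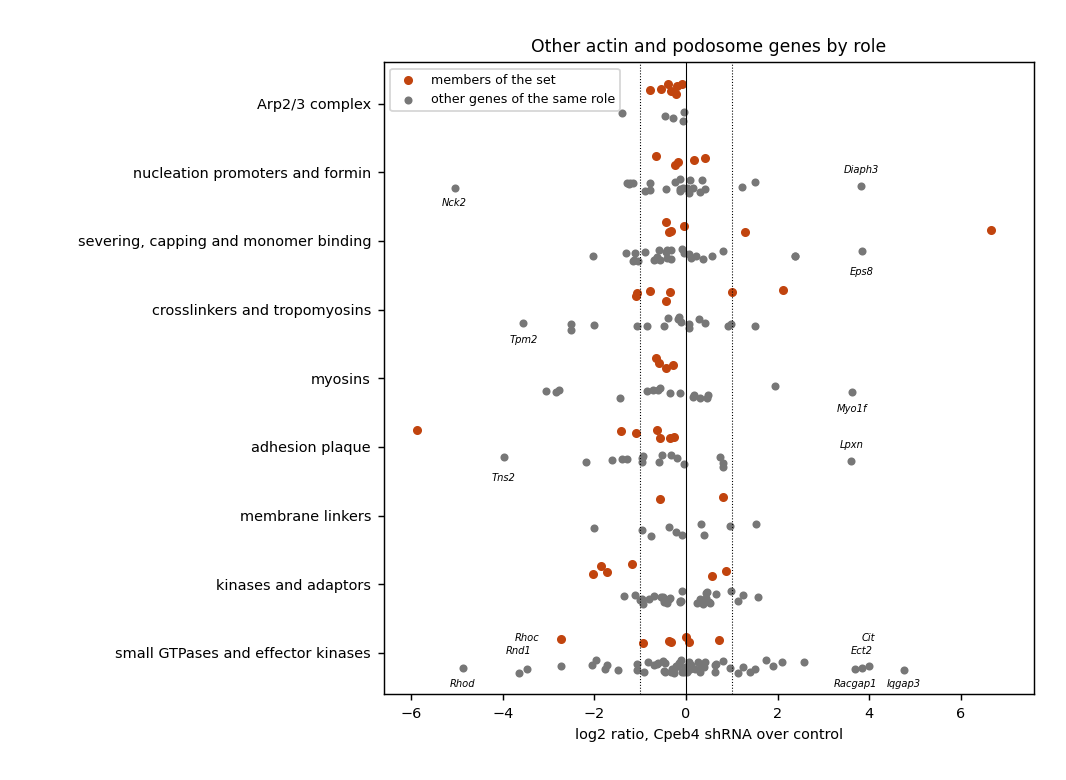
Log2 ratio of Cpeb4 shRNA over control (x axis) by role for the genes of the set (orange) and for other actin and podosome genes past the filter (grey), with the dotted lines at 2-fold. The actin isoform role is not drawn because no other actin gene passed the filter. Genes of cytokinesis such as Iqgap3 at 4.75 lie at the right of the small GTPase row, and Rhod at -4.87 at its left.

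CPEB proteins bind the cytoplasmic polyadenylation element (CPE) in the 3′ UTR of mRNAs. The letters TTTTAT or TTTTAAT were searched on the sense strand in the 3′ UTR of the representative GENCODE M21 transcript of each gene, and matches that overlap each other were each counted. One or more were present in 35 of the 53 genes (66.0%) and in 60.3% of the 10421 genes past the filter that have a 3′ UTR. The median 3′ UTR was 1312 bases long in the set and 1018 over all genes, and a longer UTR has more room for a match. Among the 11 lower genes 7 had a CPE, among the 4 higher genes 2 had, and among the 38 within 2-fold 26 had. Of all genes with a 3′ UTR the share was 54.6% for those lower, 62.4% for those higher and 60.9% within 2-fold. Pooled over their UTRs the genes of the set held 1.01 CPEs per kb, against 1.34 per kb over all genes. Tns1, with the lowest ratio, has none in 4298 bases, nor does Actg1 in 700 bases, while Actb has 2 in 683 bases. Cblb has 10 in 3356 bases and its paralog Cbl also has 10, in 8469 bases. The CPE nearest the 3′ end is shown in capitals for 5 genes whose paralog had a different ratio.
Actb: atttttgtTTTTAATttctgaat
Cblb: ttaaggtaTTTTATaaaatgaa
Ptk2b: ctctgtgtTTTTATggaactga
Ptk2: ttctccatTTTTATataattta
Scin: aaaacacaTTTTATttctataa
These matches describe letters and show neither binding nor an effect on the level of the mRNA.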

How the data were processed

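Gene counts from 2 libraries, 1 per group, were analysed. The deposited whole-number counts per gene came from reads aligned with HISAT2 to mm10, per the submitters' processing notes. The HISAT2 version, counting tool, strand setting and gene models were not given in the sources used here. Every listed gene had at least 1 count in both libraries. In the control library 585 genes had 4 counts, against 444 with 3 and 286 with 5, so the values may be estimates. Counts (119350322 and 79399680) were scaled with TMM in edgeR 4.0.16 (R 4.3.3), with factors of 1.08 for Cpeb4 shRNA and 0.922 for control. The filter of a mean of 1 CPM or more kept 12086 genes. A count of 3 corresponds to 0.0232 CPM and 0.0410 CPM. Intervals are Clopper-Pearson at 95%, and PCR copies make reads less independent than they assume. TPM used the length of 1 representative transcript per gene in GENCODE M21 for GRCm38, the assembly mm10 names, which held 18935 of the 18987 identifiers. The members, lists and pairs were chosen with earlier results of these data known. Members were described by role. Of the wider list, genes at least 4-fold different and otherwise the extremes of each role were named, with paralogs of members. Of the genes this rule names, 1 is not reported here. Alternatives were total-count, DESeq2 1.42.0 and reference-gene scaling, trend removal, thinning, a pseudocount, other filters and other fold limits. Summing with copies was added after seeing the data. The computation of ratios and intervals was tested on simulated counts with counting error only and few genes changed, as many up as down. That test does not cover differences between cultures or the choice of scaling for these libraries.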

Additional observations from a re-analysis of the deposited data

How the results depend on the processing

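No paired analysis was possible because there was 1 library per group. Of the 53 genes, 37 kept their sign and 44 their side of 2-fold under total-count, DESeq2 and reference-gene scaling, trend removal and thinning. Cpeb4 stayed below 0 throughout, at -1.49 with total-count scaling, -1.33 with reference genes and -1.76 after thinning. The median of the set was -0.14 with total-count scaling, 0.028 with reference genes, -0.34 after trend removal and -0.40 after thinning. Counts of genes at least 2-fold higher and lower were as follows. Reference-gene scaling gave 7 and 6 for the set, 40 and 25 for the wider list and 3118 and 831 for all genes, and total-count scaling left 7 lower in the set. These changes follow from the shift of every ratio. A limit of 1.5-fold gave 7 and 18 for the set, 40 and 68 for the wider list and 3191 and 2674 for all genes, and a limit of 4-fold gave 2 and 3, 12 and 17, and 582 and 426. Without a filter 3217 and 2930 genes of all passed, and at a mean of 10 CPM 1025 and 907. Depth limits the genes with few counts, such as Cttn. A pseudocount of 1 CPM moved 4 genes of the set with a low level in a library towards 0, namely Scin, Tns1, Rhou (-2.46) and Fscn1 (1.81).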
